A study of Bos taurus with 12 samples.

Results

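The genes described here encode SWI/SNF, ISWI and CHD chromatin remodelers and proteins with an AT-rich interaction domain (ARID), measured by RNA-seq in bovine expanded blastocysts. Members were chosen by symbol: SMARCA to SMARCE genes, CHD genes and ARID genes with a number, SMARCAD1, and PBRM1, BRD7, BRD9, DPF2, ACTL6A and INO80. The rule was set with earlier results of these data known. Of the 32637 genes in the count table, 39 met this rule. One of the 39, CHD9NB, shares the letters of CHD9 and lies next to it, but is not a remodeler gene by name, and it was kept so that every gene of the rule is accounted for.

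The samples were 6 female and 5 male pools of Bos taurus (cattle) embryos, which the labels separate by sex and by a library number from 1 to 3. Oocytes from slaughterhouse ovaries were fertilized in vitro with semen from a pair of bulls used in weekly rotation. Embryos were cut across both lineages, the inner cell mass and the trophectoderm. One piece was sexed by PCR, and the other went into a library together with that of a second embryo of its sex, so a library stands for 2 embryos. The question of the design is which genes differ in level between female and male embryos of this stage.

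Chromatin remodelers use ATP to slide, evict or exchange nucleosomes, the units of DNA wrapped on histones. SWI/SNF complexes open promoters and enhancers around an ATPase, SMARCA2 or SMARCA4, ISWI complexes space nucleosomes evenly, and CHD proteins read modified histones, those of the NuRD complex working beside histone deacetylases. ARID proteins bind DNA, and several of them are SWI/SNF subunits. In early embryos these genes are known for roles in genome activation and in the choice between inner cell mass and trophectoderm.

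Female libraries held 6664112 to 16162985 counted reads, and male libraries 9942952 to 21392764. Levels are in CPM, a gene's counts over the library size in 1e6 counts, after TMM scaling of that size. CPM is not divided by transcript length, so levels are compared between libraries and not between genes. The counts of 5 Y-linked genes summed to 0 to 45 in each female and to 1934 to 5254 in each male, so that the libraries sorted by their labelled sex. Male 5 stood apart on the first principal component (36.15% of the variance) at 57.3, against 9.75 to 17.5 for the other males and -28.2 to -7.37 for females. This library had the most counted reads yet the fewest genes with a count, 14937 against 16985 to 18550 in the other libraries. Male 5 also had the highest summed CPM of the 10 trophectoderm markers, 36145 against 7879 to 23154 in females and 9195 to 20252 in the other males. By mean over all libraries, KRT8 (6288 CPM) and LGALS3 (5596 CPM) made up most of this sum. The means of CDX2, GATA2 and GATA3 were 6.10, 46.9 and 137 CPM, so the sum says little about them. The hypoblast marker sum of male 5, 208 CPM over 7 listed genes, was the lowest of all libraries. The inner cell mass markers, 6 of 7 of them in the table, summed to 560 to 980 CPM in females and 792 to 1076 in males. For cumulus cells, the cells around the oocyte, the 7 markers summed to 5.38 to 32.7 CPM, most of it from FSHR, which was counted in every library at 4.58 to 27.3 CPM. CYP19A1 was also counted in every library, HAS2 and TNFAIP6 reached 61 and 45 counts, and INHA, AMH and FOXL2 never passed 4, 2 and 1 counts. Of the hypoblast genes, 6 of 7 were counted in every library. GATA6 was at 143 to 212 CPM, PDGFRA at 17.9 to 337, HNF4A at 8.41 to 32.0 and COL4A1 at 6.54 to 48.3 CPM. GATA4 (0.305 to 2.75 CPM) and SOX17 (0.0762 to 1.24 CPM) had as few as 4 and 1 counts, and FOXA2 was at 0 in 6 libraries. Of the markers tested between the sexes (6 inner cell mass, 10 trophectoderm, 5 hypoblast and 3 cumulus genes), edgeR called 0, and PTGS2 of the trophectoderm and CYP19A1 of the cumulus list had an unadjusted p under 0.05.

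Of the 39 members, 36 had enough counts for the test between the sexes. They took between 0.124% (male 4) and 0.194% (female 3) of all counts in a library. In edgeR's quasi-likelihood test with the library number as a block, where a gene is called at a Benjamini-Hochberg adjusted p (FDR) under 0.1 and a fold change over 1.5, 0 of the 36 members were called. Among all 12802 tested genes 1.91% were called, 1.5% higher in females and 0.414% higher in males. X-linked genes made up 133 of these 245 calls. All members but SMARCA1 are autosomal, and of the 12172 tested autosomal genes 86 were called. At an unadjusted p under 0.05 there were 3 members, SMARCD2, SMARCC2 and SMARCA1, or 8.33% against 13.2% of all tested genes, and all 3 had the lower mean in males, as 6.95% of tested genes did at that p. Of the 12172 autosomal genes 1350 had such a p. DESeq2 called 0 members with the library number in the model and 1, SMARCA1, without it. Over all genes DESeq2 called 655 of 15693 with the number and 739 of 15991 without it. No member had every library of one sex above every library of the other, where 1.88% of tested genes had every female above every male and 1.43% the opposite. Of the 12172 autosomal genes, 88 had every female above every male and 172 the opposite.

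The fitted differences were small for most members. Log2 fold changes, written as male minus female, were below 0 for 24 of the 36 (66.7%), against 49.5% of all tested genes, and their median was -0.13 against 0.01 for all genes. Of autosomal genes 47.6% were below 0, and their median was 0.02. Without male 5 the number of members below 0 was 29, and over the other libraries left out in turn it ran from 22 to 27. A fold change over 1.5 in either direction was fitted for 4 members (11.1%), SMARCA1, SMARCC2, ARID5B and CHD3, against 20.6% of all tested genes. Of the 12172 tested autosomal genes 2217 had one. For 12 members the 95% interval lay wholly within 1.5-fold in both directions: ACTL6A, ARID1A, ARID4B, BRD7, CHD1L, CHD2, CHD4, DPF2, SMARCA4, SMARCA5, SMARCAD1 and SMARCE1. For the other 24, a 1.5-fold difference in at least one direction lay inside the interval.

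**Figure D1:**
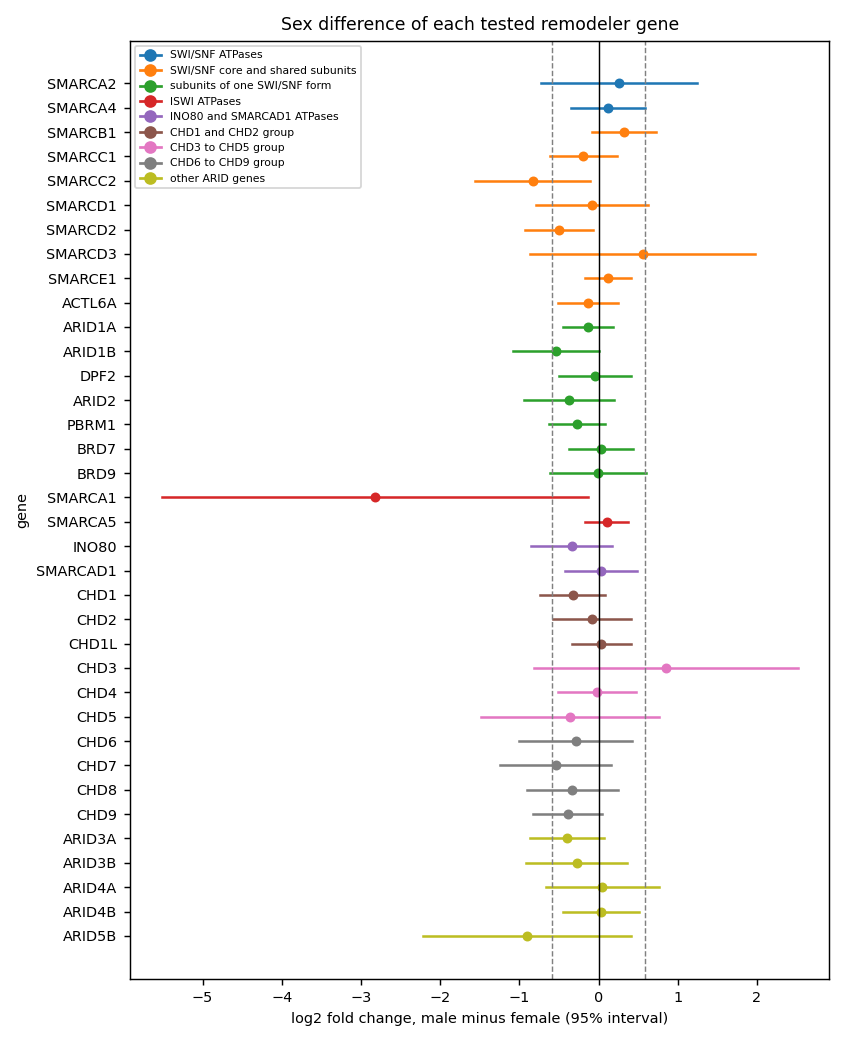
Log2 fold change of the 36 tested remodeler genes, male minus female, with its 95% interval (x axis), by gene and coloured by role (y axis). Dashed lines mark a fold change of 1.5, and the interval of SMARCA1, from -5.52 to -0.13, is the widest.

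The spread between pools was also compared. The biological coefficient of variation in edgeR is the spread between libraries beyond counting noise that is left after fitting sex and library number. Its median was 0.281 over the members and 0.348 over all tested genes, and 24 of the 36 were below that second value. Of the 36, 22 had a mean level over 14.8 CPM, the median of tested genes. The spread was not compared with genes of a like level. SMARCA5 (0.174), SMARCE1 (0.184) and ARID1A (0.199) were among the steadiest. SMARCA1 (1.14), CHD3 (0.766), SMARCD3 (0.662) and ARID5B (0.636) varied most.

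**Figure D2:**
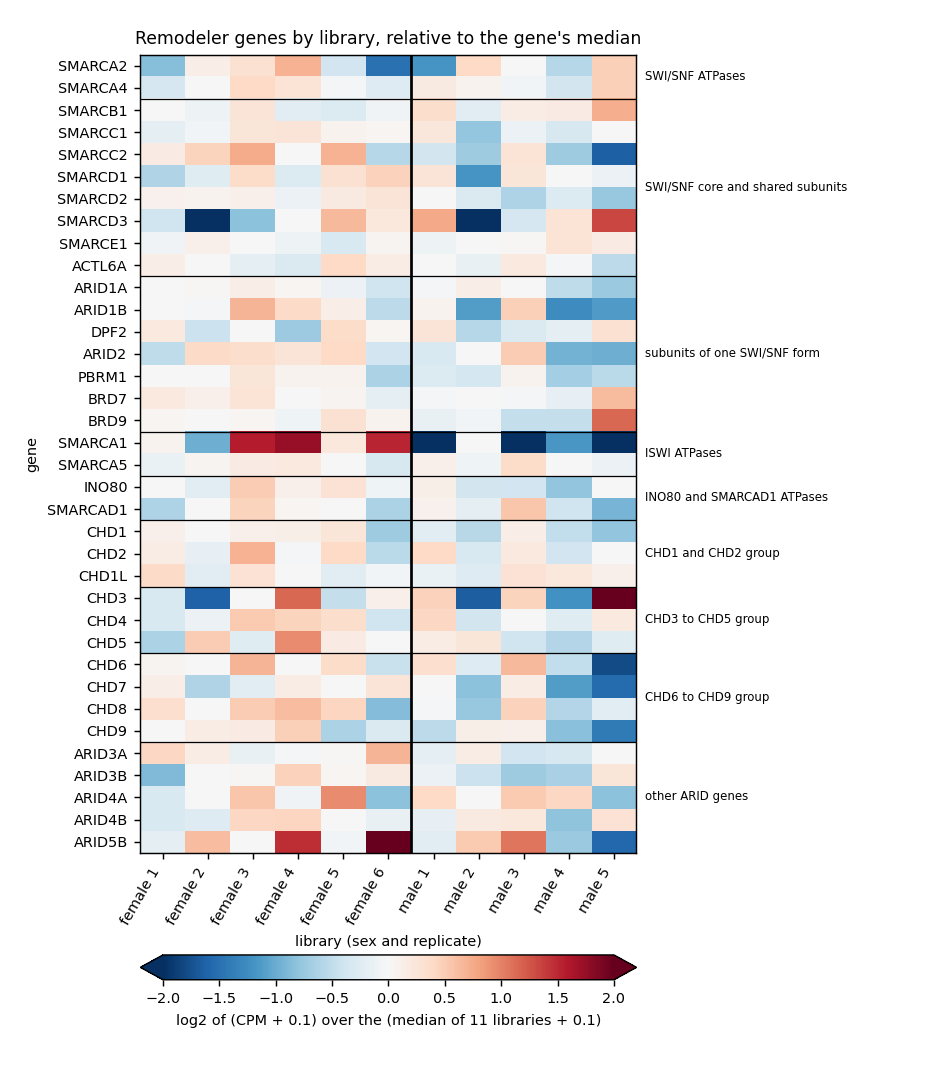
Each tested remodeler gene (rows, by role) in each of the 11 libraries (columns), as log2 of CPM plus 0.1 over the gene's median plus 0.1. Colours end at 2 in either direction, the black line parts females from males, and the rows of SMARCA1, CHD3, SMARCD3 and ARID5B hold the strongest colours.

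SMARCA1 and SMARCA5 encode the ATPases of ISWI complexes, which space nucleosomes. SMARCA1 lies on the X chromosome at 13491460 to 13564454 of the ARS-UCD2.0 assembly and was the only member on a sex chromosome, while SMARCA5 lies on chromosome 17 at 14342538 to 14380115. In females, SMARCA1 ranged from 0.65 (female 2) over a median of 2.88 to 4.81 CPM (female 4), from 6 to 66 counts. Males 1 to 5 had 0, 1.37, 0, 0.56 and 0 CPM, which are 0, 13, 0, 7 and 0 counts. A count of 0 allows up to 3 counts, or 0.248, 0.193 and 0.145 CPM in males 1, 3 and 5, counting error only. All 6 females had the transcript and 3 of 5 males did not reach a count, but the sexes overlapped, because female 2 was below male 2.

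Mean levels of SMARCA1 were 2.83 ± 1.79 CPM for females (SD, n = 6) and 0.386 ± 0.602 CPM for males (SD, n = 5). Its fitted log2 fold change of -2.82 (SE 1.24) did not pass the test (edgeR FDR = 0.355). The study named SMARCA1 among its female-biased genes, by DESeq2 with the collection week as covariate, which the labels do not give. Within library numbers 1, 2 and 3, the differences in mean log2 of CPM plus 0.1 were -1.49, -5.54 and -3.39, all lower in males. Each number held a male at 0 counts (males 1, 3 and 5), and male 3 was the only male of number 2. The sizes of these differences therefore depend on the added 0.1. DESeq2 without the library number called the gene (log2 fold change -2.93, DESeq2 FDR = 0.0516), and so did edgeR when every gene with a count was tested (log2 fold change -2.82, edgeR FDR = 0.0111), but DESeq2 with the number did not (DESeq2 FDR = 0.333). The trophectoderm marker sum, mostly KRT8 and LGALS3, spanned the whole male range in the 3 males at 0, from 9195 to 36145 CPM. In such pools a lower level in the same cells cannot be told apart from fewer cells that express the gene.

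By contrast SMARCA5 was close to equal in all pools. It ranged from 191 (female 6) over a median of 243 to 275 CPM (female 4) in females. Males 1 to 5 had 257, 225, 309, 239 and 220 CPM. Male 3 was the highest of the 11 libraries and female 6 the lowest, with the others interleaved. The log2 fold change was 0.10 (SE 0.12, edgeR FDR = 0.779), with a 95% interval from -0.17 to 0.37.

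**Figure D3:**
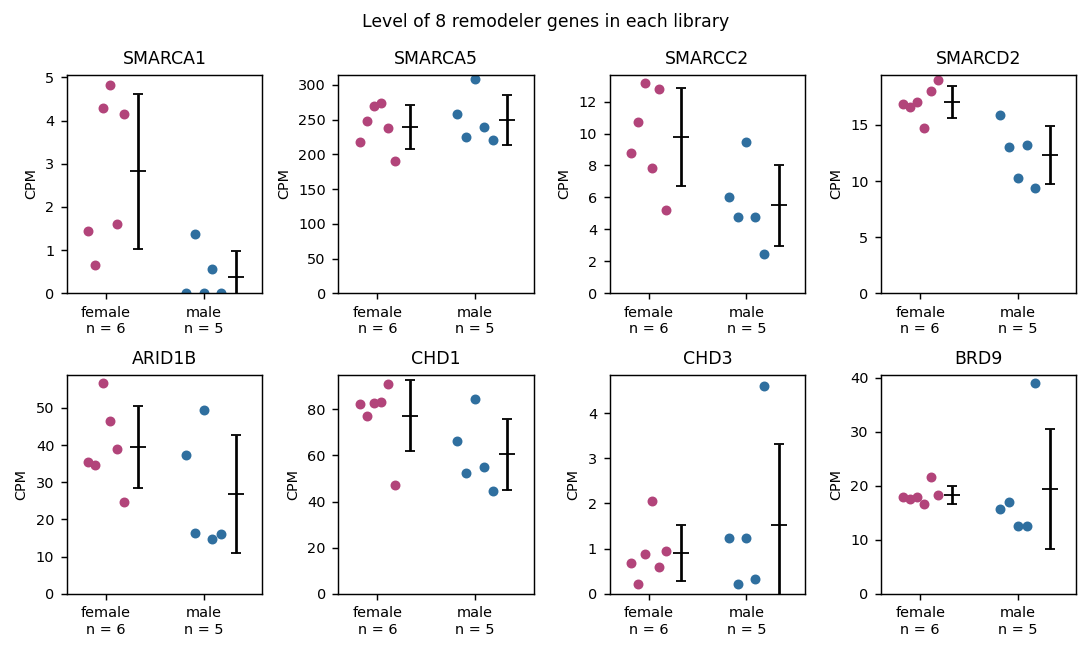
CPM (y axis, from 0) of SMARCA1, SMARCA5, SMARCC2, SMARCD2, ARID1B, CHD1, CHD3 and BRD9 in each library of 6 female and 5 male pools (x axis), with mean and SD as bars, cut at 0 where they would pass it. SMARCA1 is at 0 in 3 males, SMARCD2 overlaps by a single male and a single female, and the high male in CHD3 and BRD9 is male 5.

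The alternative ATPases of SWI/SNF are SMARCA4, also called BRG1, and SMARCA2, also called BRM. SMARCA4 ranged from 15.5 over a median of 19.4 to 25.9 CPM in females, and males 1 to 5 had 22.3, 20.6, 19.0, 15.2 and 27.3 CPM. The lowest and the highest of the 11 libraries were both males, and the fold change was near 1 (log2 0.11, SE 0.21, edgeR FDR = 0.872). SMARCA2 ranged from 1.38 over a median of 3.78 to 6.60 CPM in females, and males 1 to 5 had 1.74, 5.39, 4.06, 2.701 and 5.67 CPM. All males fell inside the female range, and a log2 fold change of 0.26 (SE 0.45) was fitted (edgeR FDR = 0.859). Without male 5 these fold changes were -0.05 for SMARCA4 and -0.02 for SMARCA2.

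Of the 8 core and shared SWI/SNF subunits, 5 had log2 fold changes below 0 and 3 above, and 2 of them, SMARCC2 and SMARCD2, had an unadjusted p under 0.05. SMARCC2 is one of a pair of scaffold subunits. In females it ranged from 5.22 (female 6) over a median of 9.75 to 13.2 CPM (female 3), and males 1 to 5 had 6.04, 4.76, 9.46, 4.77 and 2.47 CPM. Males 2, 4 and 5 were below every female, while male 3 was above 3 of them. The log2 fold change was -0.83 (SE 0.33), which did not pass (edgeR FDR = 0.302), and it was between -1.08 (without male 3) and -0.55 with single libraries left out. Its differences within library numbers 1, 2 and 3 were -0.84, -0.10 and -1.23 on the log2 scale.

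SMARCD2, one of the interchangeable subunits that link SWI/SNF to transcription factors, had the smallest FDR of the members and is named here after its values were seen. It ranged from 14.7 (female 4) over a median of 17.0 to 19.0 CPM (female 6) in females, and males 1 to 5 had 15.9, 13.0, 10.3, 13.2 and 9.40 CPM. Male 1 was above female 4, and the other males were below every female. The means were 17.0 ± 1.45 CPM (SD, n = 6) and 12.4 ± 2.58 CPM (SD, n = 5), the log2 fold change was -0.50 (SE 0.20), and this did not pass (edgeR FDR = 0.293).

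The DNA-binding subunit SMARCE1 ranged from 155 over a median of 186 to 204 CPM in females, and males 1 to 5 had 178, 191, 195, 231 and 215 CPM. Males 4 and 5 were above every female, and the log2 fold change was 0.12 (SE 0.13, edgeR FDR = 0.745). The remaining core subunits were SMARCB1, SMARCC1, SMARCD1, SMARCD3 and the actin-related ACTL6A, with log2 fold changes from -0.19 (SMARCC1) to 0.56 (SMARCD3) and edgeR FDR of 0.502 or more. SMARCD3 had as few as 1 count in a library, its 95% interval ran from -0.87 to 1.98, and its log2 fold change was -0.13 without male 1.

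SWI/SNF exists in several forms, told apart by subunits: ARID1A, ARID1B and DPF2 in the canonical form, ARID2, PBRM1 and BRD7 in the PBAF form, and BRD9 in the non-canonical form. Of these 7 genes, 6 had a log2 fold change below 0, none passed the test in edgeR or had an unadjusted p under 0.05, and DESeq2 called none of them with or without the library number. ARID1B, the DNA-binding subunit that takes the place of ARID1A, ranged from 24.7 over a median of 37.2 to 56.6 CPM in females, and males 1 to 5 had 37.3, 16.3, 49.6, 14.8 and 16.1 CPM. The males fell into separate levels, with males 2, 4 and 5 below every female and males 1 and 3 inside the female range. The log2 fold change was -0.54 (SE 0.25, edgeR FDR = 0.381), and the differences within library numbers 1, 2 and 3 were -0.508, -0.0495 and -1.003.

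DPF2, a histone reader of the canonical form, ranged from 87.6 over a median of 148 to 187 CPM in females, and males 1 to 5 had 175, 97.9, 119, 127 and 180 CPM. Every male was inside the female range, with a log2 fold change of -0.05 (SE 0.21, edgeR FDR = 0.954). The PBAF and non-canonical subunits differed by log2 -0.38 (ARID2), -0.27 (PBRM1), 0.03 (BRD7) and -0.01 (BRD9). The bromodomain genes BRD7 and BRD9 were both highest in male 5, and are given here after their values were seen. BRD9 was at 15.7, 16.9, 12.6, 12.6 and 39.0 CPM in males 1 to 5 and from 16.5 to 21.5 CPM in females, and BRD7 was at 93.3 CPM in male 5 and from 52.1 to 72.8 CPM in the other libraries. Without male 5 the log2 fold changes were -0.37 for BRD9 and -0.15 for BRD7.

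INO80, the ATPase of the complex of that name, ranged from 12.8 over a median of 15.5 to 21.3 CPM in females, and males 1 to 5 had 16.2, 11.6, 11.5, 8.66 and 15.1 CPM. Males 2, 3 and 4 were below every female, with a log2 fold change of -0.34 (SE 0.24, edgeR FDR = 0.586). SMARCAD1, an ATPase known for keeping silent chromatin, ranged from 45.9 over a median of 71.4 to 97.2 CPM in females, and males 1 to 5 had 75.8, 62.0, 105, 54.0 and 37.2 CPM. Both the highest library, male 3, and the lowest, male 5, were males, and the log2 fold change was 0.03 (SE 0.21, edgeR FDR = 0.975).

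Of the 10 tested CHD genes, 8 had a log2 fold change below 0. In the first group, CHD1, CHD2 and CHD1L, CHD1 is the remodeler that binds the methylated histone of active promoters. It ranged from 47.1 (female 6) over a median of 82.6 to 90.9 CPM in females, and males 1 to 5 had 66.3, 52.3, 84.5, 55.1 and 44.7 CPM. The other 5 females were at 77.1 CPM or more, so female 6 lay with the low males and the sexes overlapped. CHD1 had a log2 fold change of -0.33 (SE 0.19, edgeR FDR = 0.501), CHD2 of -0.08 and CHD1L, which is activated by poly(ADP-ribose) at DNA breaks, of 0.04.

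CHD3, CHD4 and CHD5 are the alternative ATPases of NuRD. CHD4 ranged from 21.2 over a median of 30.6 to 39.9 CPM in females, and males 1 to 5 had 37.2, 21.7, 27.9, 23.5 and 32.0 CPM. All males were inside the female range (log2 fold change -0.02, SE 0.23, edgeR FDR = 0.987). CHD3 ranged from 0.22 over a median of 0.78 to 2.06 CPM in females, and males 1 to 5 had 1.24, 0.21, 1.22, 0.32 and 4.60 CPM. Its log2 fold change of 0.85 (SE 0.76, edgeR FDR = 0.689), the highest of the members, was -0.11 without male 5. CHD5 was counted in every library, at 7 to 15 counts, and its 95% interval from -1.49 to 0.76 holds a difference of 1.5-fold in both directions.

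CHD6, CHD7, CHD8 and CHD9 form the last CHD group, in which CHD7 is known as the gene of a human syndrome of malformations and CHD8 as a repressor of Wnt target genes. All 4 had a log2 fold change below 0, from -0.54 to -0.29, and none passed (smallest edgeR FDR = 0.441, for CHD9), had an unadjusted p under 0.05 or was called by DESeq2. CHD7 ranged from 7.71 over a median of 12.3 to 14.0 CPM in females, and males 1 to 5 had 11.7, 6.55, 13.0, 5.32 and 3.97 CPM. CHD9 ranged from 19.1 over a median of 31.3 to 41.3 CPM in females, and males 1 to 5 had 20.7, 32.1, 31.9, 16.7 and 11.1 CPM. Males 4 and 5, both of library number 3, were below every female in both genes, and in CHD7 male 2 was too. CHD7 differed by -0.18, 0.18 and -1.46 within library numbers 1, 2 and 3, with the largest in number 3, and CHD9 by -0.28, -0.21 and -0.66.

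The ARID genes outside SWI/SNF comprise ARID3A, ARID3B, ARID4A, ARID4B and ARID5B, which were tested, and ARID3C and ARID5A, which were not. ARID4A and ARID4B are partners of the SIN3 histone deacetylase complex, ARID3A is a DNA-binding factor known from trophectoderm, and ARID5B works with a histone demethylase. ARID4A ranged from 14.9 over a median of 25.6 to 50.7 CPM in females, and males 1 to 5 had 34.8, 26.3, 37.8, 35.0 and 14.9 CPM. Females 3 and 5 were above every male, and female 6 was the lowest of the 11 libraries (log2 fold change 0.05, SE 0.33, edgeR FDR = 0.972). ARID5B ranged from 3.58 over a median of 5.18 to 19.2 CPM in females, the highest being female 6, and males 1 to 5 had 3.48, 5.92, 8.63, 2.38 and 1.31 CPM. Males 1, 4 and 5 were below every female, and the log2 fold change of -0.90 (SE 0.60, edgeR FDR = 0.569) was -0.31 without female 6 and -1.36 without male 3.

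The 3 members left out of the test did not pass the filter on low counts. ARID3C had at most 10 counts in a library, ARID5A was counted in every library at 1 to 44 counts, the highest in male 5, and CHD9NB 2 counts in male 2, 4 in male 3 and 0 in the other 9 libraries. A two-sided exact permutation of the sex labels, with 462 arrangements and no p below 0.00216 possible, gave p = 0.835 for ARID3C, 0.673 for ARID5A and 0.182 for CHD9NB. CHD9NB lies on chromosome 18 at 21543191 to 21544448 and CHD9 at 21555470 to 21782071.

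Pairs of related genes were also compared, though not all take the same place in a complex (BRD7 and BRD9 belong to different SWI/SNF forms). To ask whether the genes of a pair were balanced differently in the sexes, the log2 ratio of their counts plus 0.5 was taken. This was done in each library for 12 pairs. Since both genes of a pair are read from the same library, this measure uses no scaling of library sizes, and only its difference between libraries is read. One of the 12 pairs passed an adjusted p of 0.1. SMARCA1/SMARCA5 was at -6.69 ± 1.12 (SD, n = 6) in females and -10.99 ± 2.80 (SD, n = 5) in males, a difference of -4.30 (SE 1.33, exact permutation p = 0.00433, Benjamini-Hochberg adjusted p = 0.0519 over 12 pairs). In females the ratio lay between -8.46 and -5.51, and males 1 to 5 had -12.60, -7.30, -13.23, -8.65 and -13.15. Males 1, 3 and 5 have no SMARCA1 count, so their ratios rest on the added 0.5 and on their SMARCA5 counts of 3112, 4801 and 4544. These ratios therefore depend on sequencing depth, and so does part of the difference. With 2 counts added in its place the difference was -3.13 (exact permutation p = 0.0108, adjusted p = 0.13). With labels exchanged within library number only, in 108 arrangements, it did not pass either (exact permutation p = 0.0185, adjusted p = 0.222).

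No other pair passed. ARID1A/ARID1B was at 0.79 ± 0.26 (SD, n = 6) in females and 1.32 ± 0.68 (SD, n = 5) in males, with males 2, 4 and 5 above every female and males 1 and 3 among them (exact permutation p = 0.115, adjusted p = 0.545). SMARCC1/SMARCC2 was at 1.96 ± 0.51 (SD, n = 6) and 2.59 ± 0.78 (SD, n = 5), with male 5 highest at 3.81 (exact permutation p = 0.136). For the ATPases SMARCA2/SMARCA4 the means were -2.55 and -2.51 (exact permutation p = 0.909). In the remaining 8 pairs p was between 0.195 (CHD1/CHD2) and 0.922 (ARID3A/ARID3B) in the same exact permutation test.

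**Figure D4:**
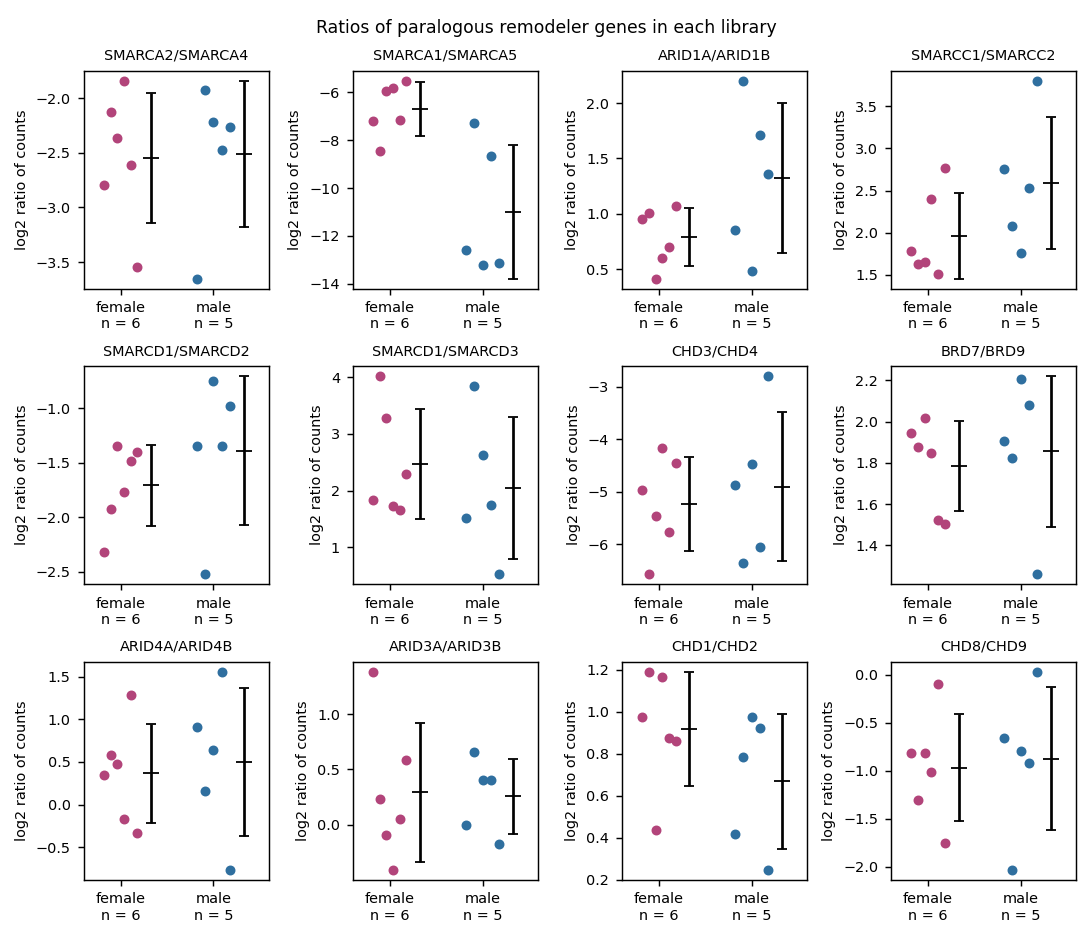
Log2 ratio of counts (y axis, 0.5 added to each count) for 12 pairs of remodeler genes in 6 female and 5 male libraries (x axis), with mean and SD as bars. SMARCA1/SMARCA5 is the pair in which 3 males, those with 0 counts of SMARCA1, lie near -13.

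Across libraries, the members were often highest in those of library number 2, which are female 3, female 4 and male 3. This held for 19 of the 36 (52.8%), against 27.8% of all tested genes. Female 3 and female 4 were each the highest for 8 members and male 3 for 3, beside 9.32%, 9.04% and 9.45% of all tested genes. Male 4 had the lowest median deviation, -0.48 on the log2 scale from each gene's own median, and female 3 the highest, 0.26. Male 5 was the lowest library for 11 members (30.6%, against 26.8% of tested genes) and the highest for 6 (16.7%, against 24.9%). In male 5, 10 members (27.8%) lay more than 2-fold from their median, beside 34.1% of all tested genes. In the other libraries 5.80% to 12.0% of all tested genes did. The part that the library number, the trophectoderm marker sum and the number of genes with a count have in these values was not tested. Male 5 had the highest such sum and the fewest such genes.

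Beside the members, 71 further genes of the same complexes and families were listed, of which 68 were tested. In edgeR 1 of the 68 was called (against 1.91% of all tested genes), 11 had an unadjusted p under 0.05 (against 13.2%), and the median log2 fold change was -0.05. None of the 10 tested SWI/SNF subunits outside the rule had an unadjusted p under 0.05 or was called in edgeR or DESeq2. Among the ISWI partners 3 of 11 had one, among the NuRD partners 2 of 12, and among the INO80, SRCAP and EP400 genes 3 of 20. Among the other SNF2-type ATPases it was 3 of 13, including the called gene, and among the other ARID-domain genes 1 of 4.

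The called gene was ATRX, an ATPase that places histone variant H3.3 in silent chromatin, on the X chromosome at 74597136 to 74883173. It ranged from 203 to 464 CPM in females, and males 1 to 5 had 193, 98.8, 210, 138 and 73.6 CPM. Male 3 was above one female, and the other males were below all of them. ATRX fell by 1.10 on the log2 scale in males (SE 0.26, edgeR FDR = 0.0763). Leaving out any one of females 1, 2, 3, 5 and 6 or males 2, 3 and 4 ended the call, with log2 fold changes from -1.19 to -0.89.

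The other X-linked genes of the list were the demethylase KDM5C, the histone-binding RBBP7 of NuRD, and ERCC6L, which works at mitotic DNA bridges. Their log2 fold changes were -0.88 (edgeR FDR = 0.377), -0.47 (edgeR FDR = 0.215) and -0.42 (edgeR FDR = 0.344). None of these 3 was called, though each had an unadjusted p under 0.05. DESeq2 called none of them, while edgeR called KDM5C when every gene with a count was tested and when male 5 was left out. Over all 476 tested X-linked genes 133 were called, 62.8% had an unadjusted p under 0.05 and the median log2 fold change was -0.85, and 30 of them had a lower log2 fold change than SMARCA1. Of the 12172 tested autosomal genes 86 were called in edgeR, 1350 had an unadjusted p under 0.05, and the median was 0.02. Of the 64 tested remodeler genes of the list that are not X-linked 0 were called in edgeR, 7 had an unadjusted p under 0.05, and the median was -0.04. DESeq2 called 1 of those 64, RUVBL1, with the library number and 3 without it. Over all genes DESeq2 called 655 of 15693 with the number and 739 of 15991 without it.

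**Figure D5:**
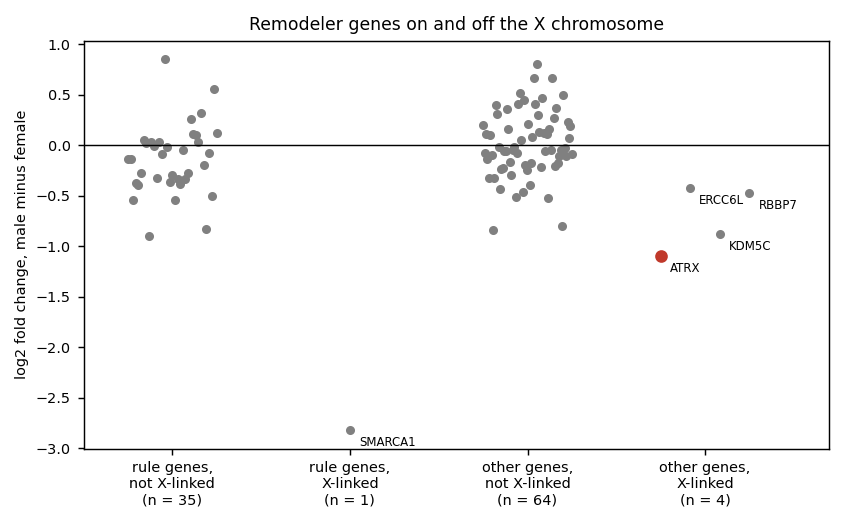
Log2 fold change, male minus female (y axis), of tested remodeler genes by chromosome (x axis): the 35 genes of the symbol rule that are not X-linked, SMARCA1, the 64 listed others not X-linked and the 4 that are. The called gene, ATRX at -1.10, is the larger point, and all 5 X-linked genes lie below 0.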

How the data were processed

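RNA-seq libraries were prepared by the authors with a full-length SMART-Seq kit that does not mark strand, from pools of 2 embryo pieces. Reads were trimmed by the authors (fastp 0.20.0), mapped with STAR 2.7.10b on ARS-UCD 2.0 and assigned to genes by featureCounts, and the raw counts were deposited with no normalization. Per the file headers, the 11 columns are the library names. A further long-read sample was not used here. Symbols were joined to RefSeq ARS-UCD2.0 for coordinates (30271 of 32637, all 39 members). Exon lengths and sequences were not at hand, so no level per length was computed.

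The members and lists were chosen with earlier results of these data known. Counts of all genes were fitted in R 4.3.3 with edgeR 4.0.16 (filterByExpr by sex, TMM factors, quasi-likelihood test, Benjamini-Hochberg over 12802 genes). The first number of the library name (1 to 3) was the block, in place of the collection week of the study, which the labels do not give. DESeq2 1.42.0 was an alternative. Single values were compared by exact permutation with python 3.11.15, numpy 2.4.6, pandas 2.3.3 and scipy 1.17.1.

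Members named by rule are given with each male's value and the range and median of the females. They are those on a sex chromosome and those of a pair with an adjusted p under 0.1. In each role group, the member with the highest CPM and that with the largest log2 fold change are also named. The rule asked for the highest level per length, for which CPM was used. SMARCD2, BRD7 and BRD9 were chosen after their values were seen. Pools are separate pools of embryos, so p-values measure the spread between pools. The edgeR and DESeq2 fits were run on simulated counts with 200 changed genes. edgeR called 22.4% of genes with a true log2 change of 1 and 70.8% of those at 2. Of its calls 11.8% were unchanged genes. DESeq2 called 46% and 79%, and 29.0% of its calls were unchanged genes. So edgeR missed most true log2 changes of 1 there. Calls of both held a share of unchanged genes above the FDR threshold of 0.1, and that of DESeq2 was the larger. A single set was simulated, with the spread fitted by edgeR and no effect of library number.

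Alternatives were a fit without the number, DESeq2 with and without it, RLE factors, looser and stricter filters, other thresholds, another prior count in the ratios, and fits without each library in turn. Limits from counts cover only counting error: without molecular identifiers, reads are not independent molecules.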

Additional observations from a re-analysis of the deposited data

Results flagged for a closer look

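Among 101 groups of libraries checked (each member and each ratio, in each sex), 8 held a library far from the others of its sex by Dixon's criterion, which chance gives to about 1 group in 20. Male 5 was that library in 4 of the 8. In male 5, BRD9 was at 39.0 CPM (other males 12.6 to 16.9), BRD7 at 93.3 CPM (53.2 to 59.9), CHD3 at 4.60 CPM (0.211 to 1.24) and ARID5A at 2.13 CPM (0.0795 to 0.579). Female 6 was low in CHD1, at 47.1 CPM (other females 77.1 to 90.9), and in PBRM1, at 31.8 CPM (49.4 to 58.4). BRD9 was at 21.5 CPM in female 5 (other females 16.5 to 18.3). ARID3C was at 0.827 CPM in male 1 (other males 0 to 0.238), which is 10 counts.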

How the results depend on the processing

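No member was called without the library number in edgeR, in DESeq2 with the number, with RLE factors, with the stricter filter, at an FDR under 0.05, without a fold change threshold, or with any single library left out. DESeq2 with no replicate block and edgeR with no filter beyond 1 count each called 1, SMARCA1, and the cause was not tested. Over all genes DESeq2 called 655 of 15693 with the number and 739 of 15991 without it. edgeR called 743 of 23857 with no filter, and 95 to 364 genes without single libraries. Among the other remodeler genes, 1 was called in the main comparison (ATRX), 2 by DESeq2 with the number (ATRX and RUVBL1), 4 by DESeq2 without it (also BAZ2B and TFPT), 3 when every gene was tested (ATRX, KDM5C and RUVBL1), and 0 to 2 without single libraries (2 without male 5, ATRX and KDM5C). Members whose libraries did not overlap numbered 0 to 1 without single libraries, SMARCA1 without female 2 or male 2 and SMARCD2 without female 4 or male 1. The pair SMARCA1/SMARCA5 was lost with 2 counts added and with the replicate block (0 pairs each), and the number of pairs was 0 to 1 without single libraries, kept only without female 2 (adjusted p = 0.0952) or male 2 (adjusted p = 0.0571) by exact permutation. The log2 fold change of SMARCAD1 turned to -0.0172 with no replicate block in edgeR and -0.0117 with no replicate block in DESeq2. Without single libraries, the log2 fold changes of 14 of the 36 members changed sign at least once. They ran from -0.11 to 0.43 for ARID4A, -0.11 to 1.20 for CHD3, -0.19 to 0.13 for CHD4, -0.18 to 0.0544 for DPF2, -0.0198 to 0.51 for SMARCA2, -0.0485 to 0.27 for SMARCA4 and -0.0816 to 0.18 for SMARCAD1. Among the members not named by rule, they ran from -0.13 to 0.79 for SMARCD3, -0.35 to 0.06 for SMARCD1, -0.37 to 0.13 for BRD9, -0.15 to 0.10 for BRD7, -0.22 to 0.08 for CHD2, -0.13 to 0.16 for ARID4B and -0.03 to 0.18 for CHD1L. SMARCA1 ran from -4.67 (without male 2) to -2.04 (without male 3), below 0 throughout. Same-numbered libraries of opposite sex had correlations of deviations, across genes, from -0.11 to 0.35 over 10 pairs, with a median of 0.00049. The other 20 pairs of opposite sex ran from -0.30 to 0.24, with a median of -0.0508. With ranges that overlap over so few pairs, these values cannot decide whether libraries of a number vary together. The edgeR fit with no replicate block changed no call of a named gene, and over all genes it called 326 in place of 245.

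Precision limits these results: SMARCA1, CHD3, CHD5 and SMARCD3 rest on few counts. The level of role groups without length was not compared, since lengths were not at hand. The settings for direction of all members, and the fits without single libraries for every member, were chosen after seeing the data. Genes with log2 fold change below 0 numbered 22 to 29 of 36, and 24 of the 35 tested under the stricter filter, which CHD3 did not pass.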
